A study of Mus musculus with 34 samples.

Results

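The hindbrain SMARCA4 peak list of a mouse embryonic day 11.5 (e11.5) series was divided by where else in the developing brain and neural tube SMARCA4 was found. The list holds 5460 rows (peaks) of the 354733 peaks in the 30 lists used, and every row was included. A row was put in 1 of 8 classes by whether it overlapped, by at least 1 bp, a SMARCA4 peak of the forebrain, the midbrain or the neural tube. Hindbrain tissue was pooled from about 150 embryos of the 129/C57BL/6 strain that carry a SMARCA4/FLAG knock-in, males and females together, and chromatin was precipitated with an anti-FLAG antibody and sequenced. The midbrain tissue (about 300 embryos), forebrain tissue (about 150) and neural tube tissue (about 150) came from the same knock-in line and were treated with the same antibody. The histone lists used beside them came from forebrain and limb of CD1 embryos of the same stage. Lists of other FLAG-tagged factors (SMARCC2, NCOA1, NCOA2 and EP300) and their controls came from face or hindbrain, pooled from about 300 embryos. SMARCA4 lists of heart (about 300 embryos), face and limb (about 150 each) were used too. The SMARCA4 and EP300 lists of embryonic stem cells have no embryonic day. Each list was 1 library, so values are compared between libraries with no replicate check and no p-value. The intervals below are exact 95% binomial (Clopper-Pearson) intervals that cover counting error only.

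SMARCA4, also called BRG1, is the ATPase of the BAF (SWI/SNF) chromatin remodelling complex, which slides and evicts nucleosomes at gene starts and at distal regulatory elements called enhancers. In the embryonic nervous system BAF complexes change their subunits as progenitors become neurons. The hindbrain gives rise to the cerebellum, pons and medulla. It is patterned along its length by Hox genes and at its front border, the isthmus, by the engrailed, Gbx2 and Pax2 transcription factors.

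The tissue tag of the hindbrain library reads forebrain, whereas its title and source name read hindbrain, and the title was followed. Peak lists hold no expression, so the tissue could not be checked against expressed markers. Of 27 hindbrain patterning genes, 9 were the nearest gene of a row, against 2 of 16 forebrain genes, 5 of 15 midbrain genes (4 of them in the hindbrain list too) and 4 of 14 housekeeping genes, so these counts do not settle the tissue. No row lay nearest to Otx2, a homeodomain factor of the forebrain and midbrain. A control list for the hindbrain SMARCA4 library was not used here. Library depth is unknown. The measure of row strength used here is the number of tags (mapped reads) in each row, from 9 to 195 with a median of 17. The authors also give a maximum read depth for each row, which was not compared between classes.

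The lists differed in form. Hindbrain rows had a median width of 333 bp, against 732 bp in midbrain, 3100 bp in forebrain and 2250 bp in neural tube. The hindbrain list covered 2.23 Mb, the midbrain list 1.39 Mb, the forebrain list 25 Mb and the neural tube list 35.5 Mb. A wider list has more chance to touch a row, and the sizes of the classes moved with the lists used: hindbrain-only rows, below, were 53.8% of all rows with the other peaks cut to 500 bp and 61.6% without the neural tube list. Without the midbrain list, 29.7% of rows were found in all the lists left.

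Hindbrain-only rows numbered 1993, or 36.5% of the rows (35.2% to 37.8%), and were the largest class. Of the rows, 3070 (56.2%) lay over the neural tube list, 1961 (35.9%) over the forebrain list and 293 (5.37%) over the midbrain list. Seen from the other side, 21.1% of neural tube peaks, 26.3% of forebrain peaks and 19.4% of midbrain peaks lay over a hindbrain row. The shares of the hindbrain rows thus spread over a far wider range than the shares of the other lists that they met.

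Among the shared rows, those over forebrain and neural tube together numbered 1505 (27.6%) and those over neural tube alone 1371 (25.1%). A further 298 rows (5.46%) lay over forebrain alone and 57 (1.04%) over midbrain alone. Midbrain and neural tube together held 78 rows (1.43%), and forebrain and midbrain together 42 (0.769%). Rows found in all 4 lists numbered 116, or 2.12% of the rows. With the peaks as given, few rows lay at the border between classes. Forebrain and neural tube peaks are far wider than hindbrain rows, so a row that meets one mostly lies inside it. The classes were not sharp in this sense with the other peaks cut to 500 bp, where hindbrain-only rows were 53.8% of all rows. Of the 3467 shared rows, 3407 (98.3%) lay wholly inside a single peak of another list, and only 61 hindbrain-only rows (3.06%) came within 1 kb of one. The 11 rows that overlapped by 1 to 100 bp had a median of 14 tags and a conservation score of 378. The 10 hindbrain-only rows that missed by at most 100 bp had 14.5 tags and 362.

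Promoter sequence is shown first, because most shared rows lay within 1 kb of a gene by the authors' distance. The stretches are RefSeq promoters of the GRCm38.p6 build, from 250 bases before to 50 after the gene's start, for the row with most tags within 250 bp of a gene in each of 4 classes. Capitals mark GGGCGG or its complement CCGCCC, the core of a GC box, and CCAAT or its complement ATTGG. The rows are given in mm9 and the promoters in GRCm38.p6, so the place of the row within the promoter was not determined.
Zmiz1, a hindbrain-only row of 25 tags, 248 bp from the gene (promoter on chr14:25458935-25459234, plus strand): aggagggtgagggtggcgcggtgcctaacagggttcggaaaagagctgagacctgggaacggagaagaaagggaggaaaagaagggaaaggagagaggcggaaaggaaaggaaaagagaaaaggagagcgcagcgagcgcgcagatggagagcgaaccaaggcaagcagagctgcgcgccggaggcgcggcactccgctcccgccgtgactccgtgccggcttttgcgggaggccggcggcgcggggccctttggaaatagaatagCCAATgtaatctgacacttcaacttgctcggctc
Lphn1 (now Adgrl1), over neural tube alone, 84 tags, 49 bp (promoter on chr8:83899848-83900147, plus strand): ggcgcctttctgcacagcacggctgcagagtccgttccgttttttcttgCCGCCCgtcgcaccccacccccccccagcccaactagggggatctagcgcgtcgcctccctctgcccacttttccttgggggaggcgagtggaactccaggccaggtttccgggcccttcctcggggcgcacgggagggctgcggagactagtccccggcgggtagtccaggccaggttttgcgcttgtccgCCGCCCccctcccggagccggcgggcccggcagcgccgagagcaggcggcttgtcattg
Zfp710, over forebrain and neural tube, 132 tags, 16 bp (promoter on chr7:80024564-80024863, plus strand): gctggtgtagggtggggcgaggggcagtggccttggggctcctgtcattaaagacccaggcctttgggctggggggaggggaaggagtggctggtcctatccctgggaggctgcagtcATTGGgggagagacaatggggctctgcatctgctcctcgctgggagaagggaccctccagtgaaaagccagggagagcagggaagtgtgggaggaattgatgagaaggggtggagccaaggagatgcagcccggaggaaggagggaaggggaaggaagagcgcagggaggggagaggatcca
Setd7, found in all 4 lists, 58 tags, 150 bp (promoter on chr3:51560774-51561073, minus strand): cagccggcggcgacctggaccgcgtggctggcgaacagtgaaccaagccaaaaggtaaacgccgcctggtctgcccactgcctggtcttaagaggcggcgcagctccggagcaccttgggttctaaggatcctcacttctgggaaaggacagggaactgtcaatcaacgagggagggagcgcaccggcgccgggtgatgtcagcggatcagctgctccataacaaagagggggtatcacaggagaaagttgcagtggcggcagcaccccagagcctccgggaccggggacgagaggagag
Zmiz1 encodes a transcriptional coactivator of the PIAS-like family, Adgrl1 a latrophilin adhesion receptor and Setd7 a lysine methyltransferase. The Zmiz1 stretch held 1 CCAAT and no GGGCGG, the Lphn1 stretch 2 GGGCGG and no CCAAT, the Zfp710 stretch 1 CCAAT and no GGGCGG, and the Setd7 stretch neither. The fraction of G and C ranged from 60.7% in Zmiz1 to 70.0% in Lphn1 over these 4 stretches.

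Over all genes with a single RefSeq promoter entry and a row within 250 bp, promoters of hindbrain-only rows had less GC than those of shared rows taken as 1 set, of which the neural tube classes make up most. The median GC content was 60.0% (quartiles 53.5% to 64.3%) over 62 promoters of hindbrain-only rows, against 66.3% (60.3% to 73.0%) over 584 promoters of shared rows. It was 55.7% over all 14731 such protein-coding promoters. The ratio of observed to expected CpG was 0.713 in the promoters of hindbrain-only rows, 0.829 in those of shared rows and 0.559 in all. GGGCGG on either strand stood in 62.9% (49.7% to 74.8%) of the promoters of hindbrain-only rows, 77.2% (73.6% to 80.6%) of those of shared rows and 45.3% of all. CCAAT stood in 33.9% (22.3% to 47.0%), 25.2% (21.7% to 28.9%) and 39.6% of the same 3 sets. For both motifs the intervals of the hindbrain-only and shared promoters overlapped. The E-box CANNTG stood in 66.1%, 60.1% and 69.2%, the homeodomain core TAATTA in 4.84%, 1.71% and 4.88%, and TATAAA in 4.84%, 3.42% and 14.3%. The shared classes differed among themselves: the 24 promoters over forebrain alone had a median GC of 56%, a CpG ratio of 0.544 and GGGCGG in 45.8%, all below the hindbrain-only values, and the 8 promoters of all 4 lists had a CpG ratio of 0.381. The 292 promoters over forebrain with neural tube had 67.7%, 0.834 and 78.8%, and the 253 over neural tube alone 66%, 0.850 and 78.3%. A match to such a short run of letters is a description and not a binding site.

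By the authors' distance to the nearest gene, hindbrain-only rows lay mostly more than 10 kb away, and shared rows mostly within 1 kb. More than 10 kb away were 1410 hindbrain-only rows. These distal rows were 25.8% of all rows and 70.8% (68.7% to 72.7%) of the hindbrain-only rows, against 18.7% (17.4% to 20.03%) of the shared rows. Of all rows, 37.7% were distal. Only 302 hindbrain-only rows (15.2%) lay within 1 kb of a gene, against 2419 shared rows (69.8%). The median distance was 28869 bp for hindbrain-only rows and 423 bp for shared rows. The point of the gene from which the authors measured is not stated in their table. A row far away by this distance was therefore not shown to lie outside the gene.

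Single classes differed among themselves. Rows over neural tube alone and rows over forebrain with neural tube were the most promoter-bound, with 16.1% and 12.03% distal and with 74.5% and 78.7% within 1 kb. Rows over forebrain alone were 40.9% distal (35.3% to 46.8%), those over midbrain alone 54.4% (40.7% to 67.6%) and those over forebrain with midbrain 73.8% (58.0% to 86.1%). Rows over midbrain with neural tube and rows of all 4 lists were 32.05% and 31.9% distal. The interval of the 42 rows over forebrain and midbrain thus held the share of the hindbrain-only rows. More than 100 kb from a gene lay 377 hindbrain-only rows (18.9%), 9 forebrain and midbrain rows (21.4%) and 15 forebrain and neural tube rows (0.997%).

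**Figure D1:**
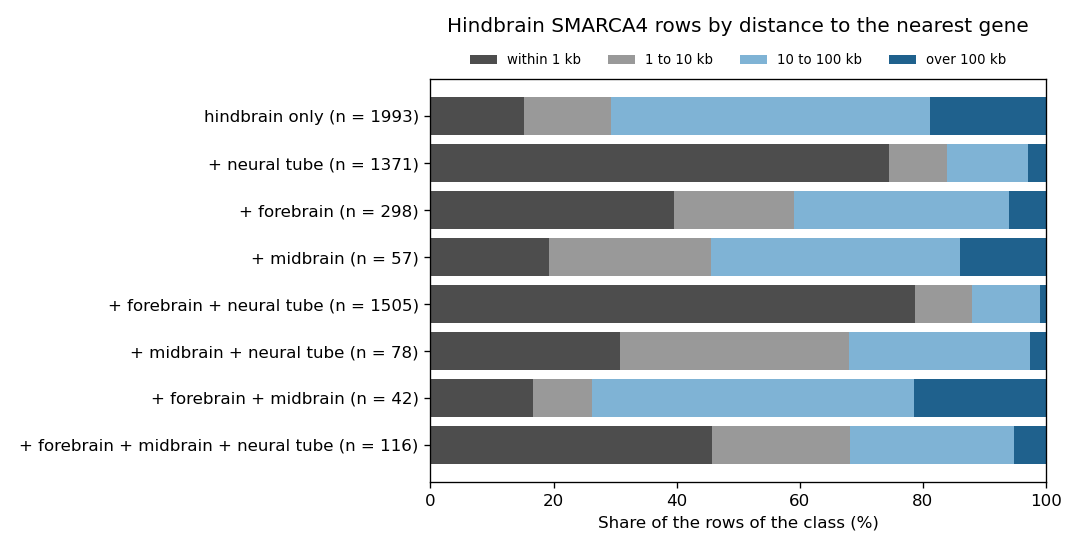
Share of the rows of each class (horizontal axis, percent) in 4 distance classes, with the classes down the page and n the number of rows; the plus sign names the other lists a row overlapped. Distal rows make up 70.8% of the hindbrain-only class, against 12.03% of the class over forebrain and neural tube.

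The distal share of hindbrain-only rows also stayed above that of shared rows in the subsets below. The control and input lists are of other libraries, and the filter on them took out mostly shared rows. Whether the rows taken out are background was not tested. Rows over any of the 9 control or input lists made up 16.7% of hindbrain-only rows (15.1% to 18.4%), against 73.5% of shared rows (72.0% to 74.96%), and 82.6% of rows over forebrain and neural tube. With such rows left out, 76.2% of 1660 hindbrain-only rows were distal, against 39.7% of 919 shared rows. Without rows over forebrain H3K4me3, 82.3% of 1582 hindbrain-only rows were distal, against 62.5% of 397 shared rows. H3K4me3 is a mark of active gene starts, so this filter takes out mainly rows near genes by its choice. When each list was cut to its 1513 strongest peaks, the length of the midbrain list, 30.1% of 951 hindbrain-only rows were distal, against 16.9% of 562 shared rows. There the distal share of hindbrain-only rows lay below the 70.8% of the full lists by more than 1.5 times. The overlap of shared promoter rows with control lists moves with the promoter share of the classes, and its part in that share was not tested.

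The base pairs of each class by the authors' annotation codes, which their table does not spell out, followed the distances. Codes ig5 and ig3, whose rows lay at least 20143 bp from a gene, held 39.1% of the bases of hindbrain-only rows, against 10.5% of those of shared rows. The codes e5u and i5u held 11% and 29.2% of the bases of the same sets. Distal rows stood under other codes too: rows with most bases in the code ici had a median distance of 17403 bp.

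Hindbrain-only rows were weak within their list. Their median was 13 tags (quartiles 10 to 17), against 20 (14 to 28) in shared rows and 30 (20 to 46) in the 293 rows over midbrain. The median was 19 tags in rows over neural tube alone, 17 over forebrain alone, 24 over midbrain alone and 20 over forebrain with neural tube. It reached 35.5 over midbrain with neural tube, 24.5 over forebrain with midbrain and 32 in all 4 lists. Rows of more tags were also wider, with a median width of 259 bp in hindbrain-only rows, 387 bp in shared rows and 569 bp in rows over midbrain. Per 100 bp the medians came together, at 4.92 tags in hindbrain-only rows and 5.11 in shared rows, and the authors' fold enrichment had medians of 9.88 and 9.26 in these sets.

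**Figure D2:**
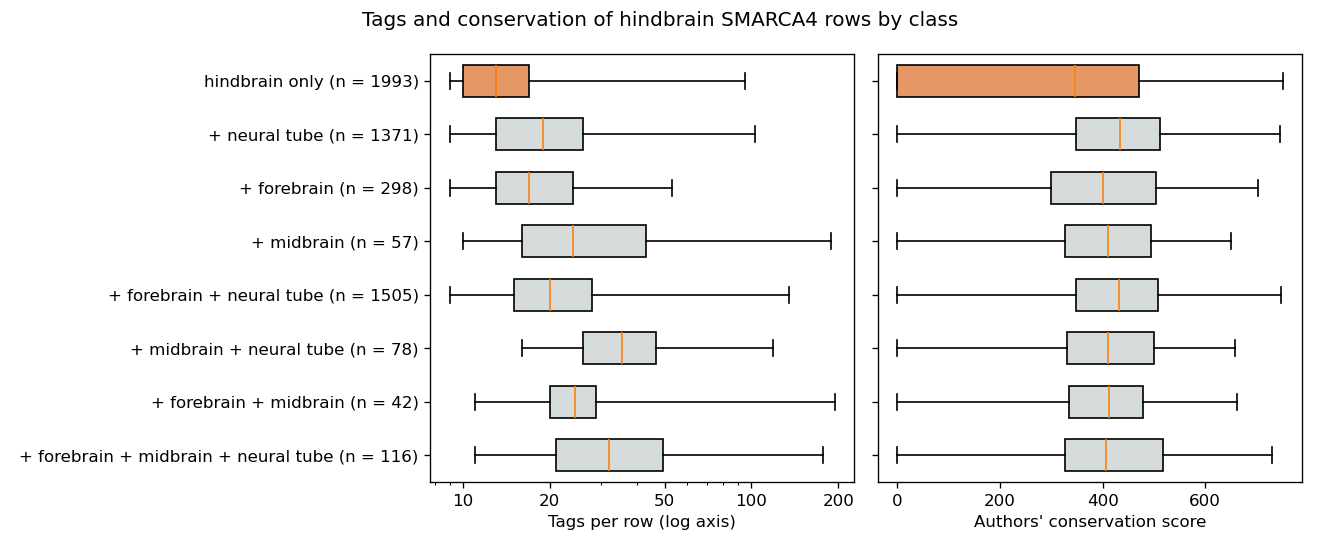
Tags per row on a log axis (left) and the authors' conservation score (right) for the 8 classes; boxes span the quartiles, the inner line is the median and whiskers reach the lowest and highest row. The hindbrain-only class has the lowest median of both, 13 tags and a score of 346.

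The share of rows that were hindbrain-only fell with every step of the tag count. It was 72.0% (68.6% to 75.1%) of 756 rows with 9 to 10 tags, 45.5% of 920 rows with 13 to 15 tags and 21.8% of 916 rows with 20 to 25 tags. Of 360 rows with 41 to 195 tags, 5.56% (3.43% to 8.45%) were hindbrain-only. The share over midbrain went the other way, with 0.132% of the rows of 9 to 10 tags and 24.4% (20.1% to 29.2%) of those of 41 to 195 tags. Classes therefore differ in row strength as well as in tissue, and these cannot be told apart with 1 library each.

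Distal rows were more frequent in hindbrain-only than in shared rows within each bin of tags. Within 9 to 10 tags 73.7% of hindbrain-only rows were distal, against 7.55% of shared rows. Within 20 to 25 tags the shares were 69.5% (62.6% to 75.8%) of hindbrain-only rows and 18.6% (15.8% to 21.6%) of shared rows. Within 26 to 40 tags they were 63.8% of hindbrain-only rows and 26.02% of shared rows. In the highest bin 8 of 20 hindbrain-only rows were distal (40%, 19.1% to 64.0%), against 20.3% (16.2% to 24.97%) of shared rows, and there the intervals overlapped.

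**Figure D3:**
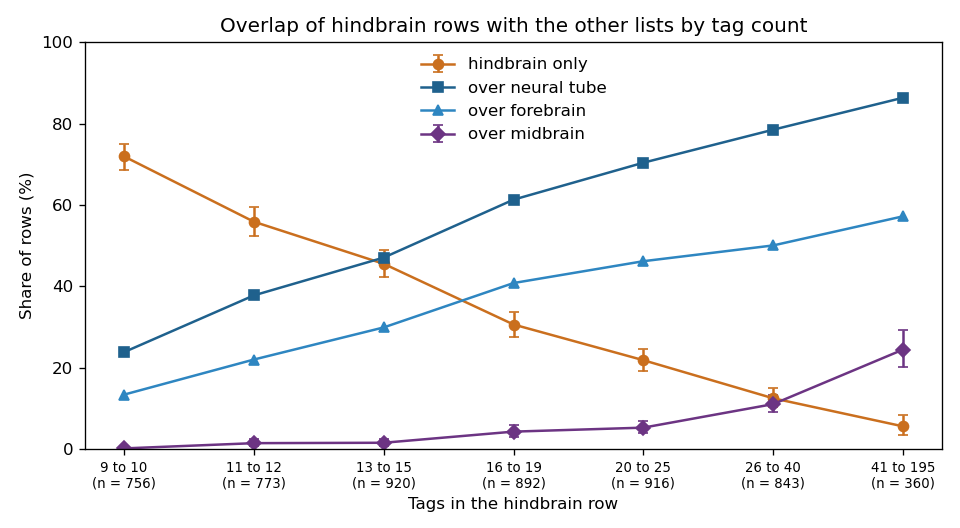
Share of hindbrain rows (vertical axis, percent) that were hindbrain-only or lay over each other list, by the number of tags in the row; n is the number of rows and bars on the hindbrain-only and midbrain lines are exact 95% intervals. Hindbrain-only rows make up 72.0% of the rows of 9 to 10 tags and 5.56% of those of 41 to 195 tags, and rows over midbrain go the other way.

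Conservation scores were lower in hindbrain-only rows, and more of these rows had the score 0. The authors' score ranged up to 751 and its scale is not given in the table. Its median was 346 in hindbrain-only rows, against 429 in shared rows, and the other 7 classes lay between 401.5 and 433. The score was 0 in 26.6% (24.7% to 28.6%) of hindbrain-only rows and 6.26% (5.48% to 7.12%) of shared rows. Without those rows the medians were 414 and 441. Among distal rows the score was 0 in 28.8% of hindbrain-only rows and 10.5% of shared rows, and the medians of the rest were 406 and 442. Hindbrain-only rows over 100 kb from a gene had a median of 379, above the 318 of those at 10 to 100 kb. The difference between the classes did not hold throughout: in the 20 hindbrain-only rows of 41 to 195 tags the median was 457, against 426 in the shared rows of that bin, and at equal list lengths it was 426 in hindbrain-only rows and 431 in shared rows.

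Distal hindbrain-only rows overlapped marks of regulatory chromatin less often than distal shared rows did. H3K4me1, a histone mark of enhancers and of the flanks of promoters, lay in forebrain over 36.7% (34.2% to 39.2%) of 1410 distal hindbrain-only rows, against 86.4% (83.5% to 89.0%) of 648 distal shared rows. Forebrain H3K4me3, the mark of active gene starts, lay over 7.66% of distal hindbrain-only rows and 61.7% of distal shared rows, so many shared rows called distal by the authors' distance carry a mark of gene starts. H3K4me1 without H3K4me3 lay over 30.2% (27.8% to 32.7%) of distal hindbrain-only rows and 32.6% (29.0% to 36.3%) of distal shared rows, with overlapping intervals. Limb H3K27ac, a mark of active promoters and enhancers, lay over 8.65% and 48.8% of these sets. Forebrain H3K27me3, the mark left by the Polycomb complex, lay over 2.70% of distal hindbrain-only rows and 8.64% of distal shared rows. No histone list of hindbrain was used here. The shared set is itself partly defined by forebrain peaks. Forebrain H3K4me1 lay over 92.6% of distal rows over forebrain alone and 77.4% of those over neural tube alone. Distal hindbrain-only rows had medians of 12 tags and 255.5 bp, against 23 tags and 418.5 bp in distal shared rows. The shares above were not matched for tags or width.

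Hindbrain-only means absent from the other 3 neural lists, not from the embryo. SMARCA4 peaks of face lay over 23.6% (21.4% to 25.9%) of distal hindbrain-only rows, against 77.0% (73.6% to 80.2%) of distal shared rows. Heart peaks lay over 5.11% and 21.3% of these sets, limb peaks over 0.922% and 25%, and embryonic stem cell (ESC) peaks over 2.48% and 5.56%. Any of these 4 lists lay over 27.2% of distal hindbrain-only rows and 82.4% of distal shared rows. SMARCC2, another BAF subunit, lay in face over 12.9% of distal hindbrain-only rows and 52.6% of distal shared rows. Its hindbrain list, of the same tissue, lay over only 5 distal hindbrain-only rows and 2 distal shared rows, and over 0.623% of all rows, against 4, 6 and 1.32% for its control list. The nuclear receptor coactivator NCOA2 in hindbrain lay over 0 of 1410 distal hindbrain-only rows, which allows a share of up to 0.213% (3 counts of the total; the exact interval reaches 0.261%), and over 5.86% of distal shared rows. Its control list lay over 1.21% and 8.18%, more than NCOA2 itself in both sets. None of the other 29 lists, controls included, touched 570 distal hindbrain-only rows (40.4%).

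**Figure D4:**
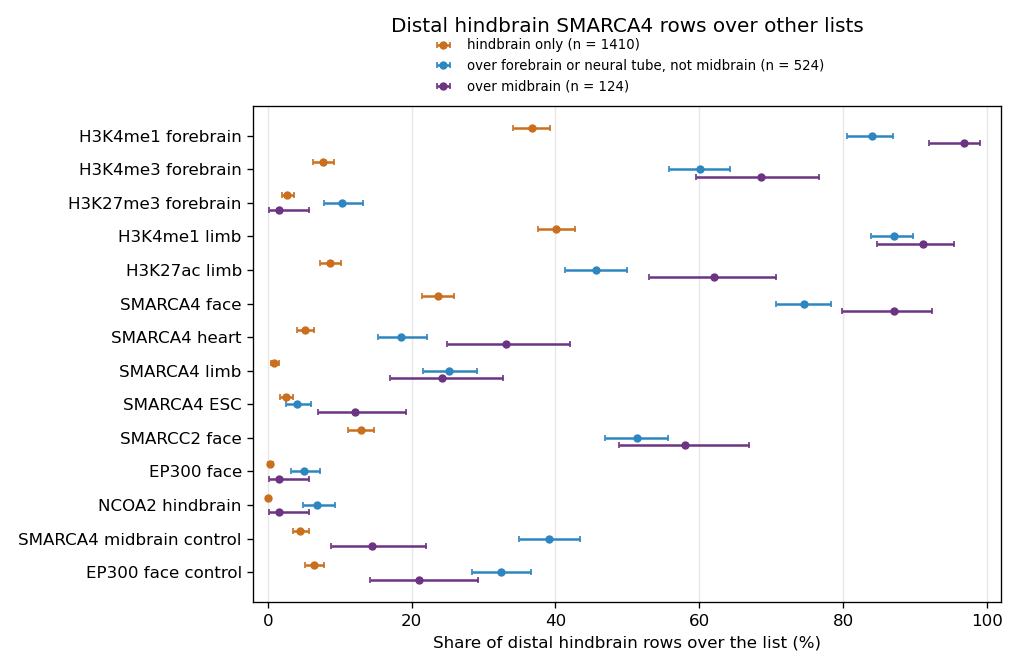
Share of distal hindbrain rows (horizontal axis, percent, with exact 95% intervals) that lay over other lists of the series, for hindbrain-only rows, rows over forebrain or neural tube but not midbrain, and rows over midbrain. Distal hindbrain-only rows have 36.7% over forebrain H3K4me1 and 23.6% over face SMARCA4, the lowest of the 3 sets for each.

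Distal rows over midbrain stood at the other end. Of these 124 rows, 96.8% (92.0% to 99.1%) lay over forebrain H3K4me1 and 87.1% over face SMARCA4. Of the 524 distal rows over forebrain or neural tube but not midbrain, 84.0% (80.5% to 87.0%) lay over that H3K4me1 list and 74.6% over face. The midbrain control list lay over 14.5% of the distal rows over midbrain, 39.1% of those over forebrain or neural tube but not midbrain and 4.47% of the hindbrain-only ones.

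Within 1 kb of a gene, too, hindbrain-only rows lay less often over the lists named here. Forebrain H3K4me3 lay over 80.1% (75.2% to 84.5%) of 302 hindbrain-only rows and 97.1% (96.3% to 97.7%) of 2419 shared rows. Face SMARCA4 lay over 60.9% and 84.8%. Hindbrain NCOA2 lay over 10.3% (7.08% to 14.2%) of these hindbrain-only rows and 38.2% (36.2% to 40.1%) of the shared rows. The NCOA2 control lay over 9.60% and 21.2% of the same sets, and the midbrain SMARCA4 control over 41.7% and 82.0%.

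The rows with most tags named different genes in each class. The 3 strongest hindbrain-only rows had 95 tags at 10.9 kb from Tshz3, a teashirt zinc finger transcription factor, 92 tags at 6.67 kb from the transcript AK164256, and 80 tags at 4.34 kb from Accn4 (now Asic4), of the acid-sensing ion channel family. All 3 lay over forebrain H3K4me1, and the rows at Tshz3 and AK164256 also lay over face SMARCA4; 1 control list lay over the Tshz3 row. The strongest row of the list had 195 tags and lay 4.87 kb from Insm1, a zinc finger factor of neuronal progenitor differentiation, over forebrain and midbrain. That class also had rows at AK076849 (80 tags) and 2210404O07Rik, now Smim24 (67 tags). The midbrain control list lay over the Insm1 row, 2 control lists lay over the AK076849 row and none over the Smim24 row.

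Over midbrain alone the leading rows were at Zfp532 (189 tags), the collagen receptor kinase Ddr1 (132 tags) and Smarcd3 (126 tags), which encodes the BAF60C subunit of the complex that holds SMARCA4 itself. In all 4 lists they were at 1700019O17Rik, now Tex44 (177 tags), Sox13 of the SoxD transcription factors (144 tags) and Chd7 (133 tags), a chromodomain remodeller mutated in CHARGE syndrome in humans. The Chd7 row lay 494 bp from its gene and overlapped 3 control lists, as did the Sox13 row. The Zfp532 and 1700019O17Rik rows overlapped 2 control lists each, and the Ddr1 and Smarcd3 rows 1 each. Over midbrain with neural tube they were at the tetraspanin Tspan14 (119 tags), the transcription factor Camta1 (106 tags) and the G protein subunit gene Gnai2 (91 tags). The Tspan14 row overlapped 2 control lists, and the Camta1 and Gnai2 rows 1 each.

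Over forebrain with neural tube the leading rows were at Mad2l2 (135 tags), Zfp710 (132 tags) and Id3 (100 tags), an inhibitor of basic helix-loop-helix factors. Over neural tube alone they were at AK029591 (103 tags), the tyrosine kinase gene Src (99 tags) and mKIAA0327 (86 tags). Over forebrain alone they were weaker, at Chd3 of the NuRD remodelling complex (53 tags), Punc, now Igdcc3 (52 tags), and the amino acid transporter gene Slc43a2 (49 tags). The strongest row of the forebrain class had fewer tags than that of any other of the 8 classes. The Mad2l2, Zfp710, Id3 and Chd3 rows overlapped 2 control lists each, and the AK029591 and mKIAA0327 rows 1 each. No control list lay over the Src, Punc and Slc43a2 rows.

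Genes with repeated distal hindbrain-only rows were few. Of 4550 genes nearest to a row, 1210 (26.6%) had at least 1 such row, and 1044 of these had exactly 1. At least 4 were found at 5 genes (0.11%), which are Zfp608, Tnr, Tox3, Rlbp1l1 and D11Bwg0517e. Genes in wide intergenic stretches can collect more rows, and the length of these stretches was not corrected for.

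Zfp608, which encodes a zinc finger protein, had the most, with 6 distal hindbrain-only rows on chromosome 18 between 54919506 and 55784597 (mm9), over 865 kb. The rows lay 23.45, 48.2, 72.0, 136, 514 and 632 kb from the gene and had 11, 16, 27, 13, 11 and 10 tags. All 6 lay over forebrain H3K4me1, none lay over a control or input list, and 1 lay over face SMARCA4. Their conservation scores ran from 501 to 627, above the upper quartile of 470 of hindbrain-only rows in each case. Zfp608 had 2 shared rows as well, over forebrain and over forebrain with neural tube, 556 and 701 kb away with 26 and 14 tags, the first of them over a control list. Within the same span the neural tube list had 7 peaks, the forebrain list 5 and the midbrain list 0, so the region was not empty in the other tissues.

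Tnr, which encodes tenascin-R, a matrix glycoprotein of the nervous system, had 4 rows and no others, 28.5, 46.8, 91.2 and 110 kb away. They had 21, 10, 15 and 13 tags and conservation scores from 430 to 540, and 3 of them lay over forebrain H3K4me1. No forebrain, midbrain or neural tube SMARCA4 peak lay within their span of 201 kb on chromosome 1, between 161344033 and 161545216.
Tox3, a gene for an HMG-box protein, also had 4 rows and no others, 69.7, 103, 271 and 566 kb away with 13, 15, 13 and 10 tags. Their conservation scores ran from 0 to 683, 2 lay over forebrain H3K4me1, and no forebrain, midbrain or neural tube peak lay in their span of 497 kb on chromosome 8.

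Rlbp1l1, now Clvs1, encodes clavesin 1, a lipid-binding protein of neurons. Its 4 rows lay 68.4, 84.3, 87.7 and 92.8 kb away with 10, 19, 11 and 9 tags, and their conservation scores ran from 0 to 374, under those at Zfp608 and Tnr. The row of 19 tags lay over forebrain H3K4me1, over face SMARCA4 and over a control list. D11Bwg0517e, which had no match in the RefSeq table, had 4 rows on chromosome 11, 70.8, 83.2, 94.1 and 181 kb away with 19, 15, 11 and 16 tags. Its shared row, 116 kb away with 28 tags, lay over neural tube and had the most tags at the gene.

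A further 22 genes had 3 such rows, so that 27 genes (0.593%) had at least 3. They fell outside the rule by which genes are named and are given here after their values were seen. Among them were Mycn, a proto-oncogene of the MYC family, the transcription factor genes Bnc2, Tshz2, Zbtb20 and Zfp462, and Cdca7, Dclk2, Dlgap2, Lrrn3 and Pvrl1 (now Nectin1). The 3 rows of Zfp462 lay 296 to 414 kb away and all lay over forebrain H3K4me1, those of Gramd3 lay 352 to 615 kb away, and those of AK033222, AK049847, Dlgap2 and Pvrl1 had none over that list. Tags ran from 9 in 6 of the genes to a highest value of 37 at Tshz2.

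**Figure D5:**
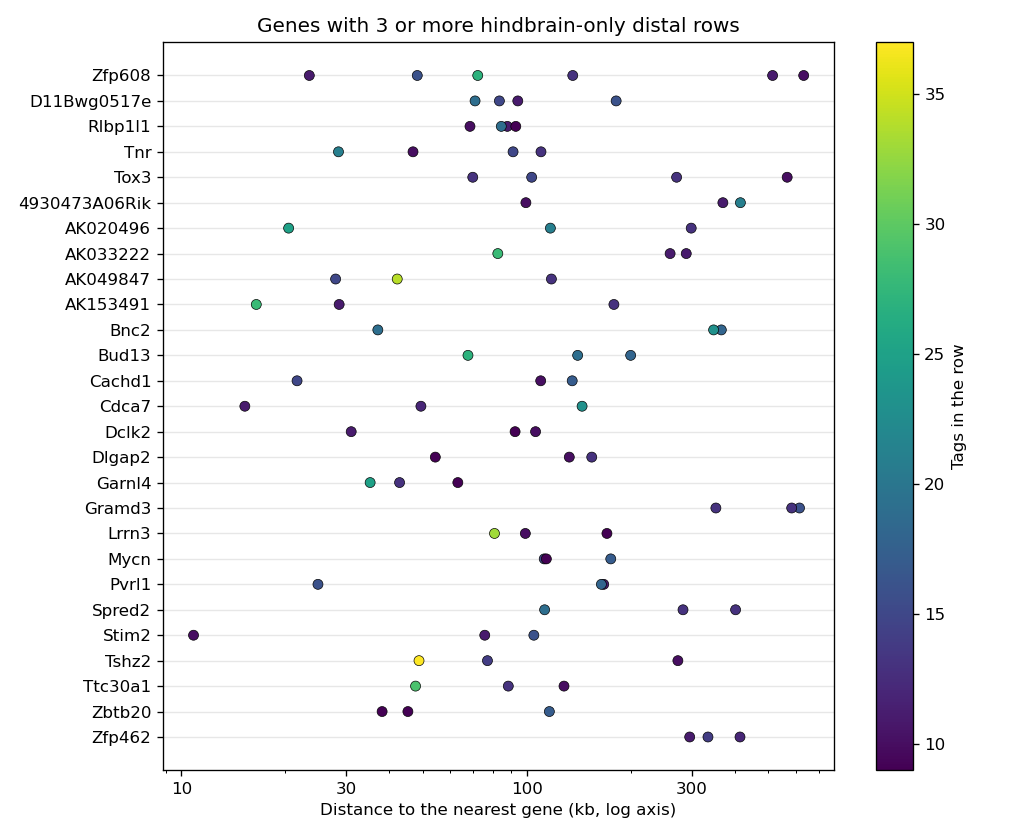
Distance from the nearest gene (log axis, kb) of each distal hindbrain-only row at the 27 genes with 3 or more, with point colour giving the tags of the row. Zfp608 at the top has 6 rows between 23.45 and 632 kb, and most points are of under 20 tags.

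Taken by position rather than by gene name, 3 windows of at most 1 Mb held 7 distal hindbrain-only rows each, a search made after the values were seen. One lay on chromosome 14 between 22071436 and 23017613, with 3 rows at AK153491, 2 at Myst4 and 1 each at Adk and Comtd1. One on chromosome 18, between 54983097 and 55976459, joined 5 rows of Zfp608 and 2 of Gramd3, and 6 of these lay over forebrain H3K4me1. The one on chromosome 9, between 45840263 and 46764098, had 3 rows each at AK049847 and Bud13 and 1 at BC033915. Each window also held peaks of the other neural lists, which on chromosome 14 were 4 of forebrain, 1 of midbrain and 9 of neural tube.

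The 3 most conserved distal hindbrain-only rows had few tags. A row of 12 tags 49.3 kb from Cdca7, a gene of the cell cycle with 3 such rows, had the highest conservation score, 751, a row of 14 tags 17.4 kb from AK037308 had 719, and a row of 10 tags 16.04 kb from Mbd5, a methyl-CpG-binding domain gene, had 718. All 3 lay over forebrain H3K4me1 and over no control list. Of these 3, only the Cdca7 row stood under the authors' codes ig5 or ig3, and the Mbd5 row stood wholly under the code eci. The codes are not spelled out, so the Mbd5 row was not shown to lie outside the gene. Whether its high score is that of a distal element was not tested.

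At patterning genes of the hindbrain the rows, 0.183% of all rows, were evenly divided between hindbrain-only and shared. The share of all genes that had a row was not computed, so the counts of genes cannot be called low or high. The 9 genes of the list of 27 had 10 rows, 5 hindbrain-only and 5 shared, none over midbrain, against 36.5% hindbrain-only over all rows. En2, an engrailed homeodomain factor of the isthmus and cerebellum, had a hindbrain-only row of 26 tags 399 bp from the gene, over forebrain H3K4me3, NCOA2 in hindbrain and 1 control list. Hoxb2, a rhombomere identity factor and the only Hox gene of the list with a row, had a hindbrain-only row of 19 tags 3.22 kb away, over forebrain H3K4me1. Atoh1, the factor of the rhombic lip, had a hindbrain-only row of 9 tags and conservation score 0 at 132 kb, over no other list. Lmx1a, a roof plate factor, had a hindbrain-only row of 15 tags at 225 kb, and Lmx1b, which is required by serotonergic neurons, had one of 20 tags at 59.2 kb.

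Each of the 5 shared rows of the hindbrain genes had more tags than any of these 5. Meis1, a Hox cofactor, had a row of 52 tags 1.01 kb away over forebrain and neural tube, and 2 control lists lay over it. Gbx2, which sets the front border of the hindbrain, had a row of 34 tags 37.2 kb away, and Pax2 one of 30 tags 61.0 kb away, both over neural tube. Lmx1b had a second row of 31 tags 24.1 kb away over forebrain and neural tube, and En1 a row of 29 tags 41.3 kb away over forebrain. The Gbx2 row overlapped 2 control lists and this Lmx1b row 1, and the Pax2 and En1 rows overlapped none. These genes were not free of rows shared with tissues outside the hindbrain.

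Rows at genes of the other regional lists are given as counts only. Of the forebrain genes, Six3, a factor of the anterior neural plate, had a hindbrain-only row of 16 tags at 159 kb, over 1 control list. Tbr1, a factor of cortical neurons, had a row of 22 tags at 10.9 kb over neural tube. Of 15 midbrain genes, 5 had 6 rows, of which 4 were hindbrain-only, but 4 of these genes stand in the hindbrain list too. The remaining gene, Foxa2 of the floor plate, had a hindbrain-only row of 15 tags at 140 kb. It lay over H3K27me3 and H3K4me1, each in forebrain and limb, and over face SMARCC2. Of 20 spinal genes, Irx3 had a row of 25 tags at 88.4 kb over forebrain and Lbx1, of dorsal interneurons, a hindbrain-only row of 14 tags at 18.99 kb over no other list.

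General genes of neural progenitors and neurons had 16 rows at 11 of 20 genes, of which those named here were chosen after their values were seen. Of these rows, 5 were hindbrain-only (31.2%) and 2 lay over midbrain. The strongest had 62 tags and lay 16.1 kb from Notch1, the receptor that holds progenitors undifferentiated, over midbrain and neural tube. Notch1 had a hindbrain-only row of 32 tags at 4.16 kb too, over face and heart SMARCA4. Pou3f2 had a hindbrain-only row of 27 tags at 3.30 kb over the midbrain control. Sox2 had 1 row of 22 tags at 1.71 kb over forebrain and neural tube, and Nes 1 row of 17 tags at 467 bp in the same class. The Nes row overlapped 2 control lists.

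Genes of other cells that such tissue can hold had rows as well. Endothelial genes had 2 rows (1 hindbrain-only) at 2 of 12 genes, and erythroid genes 3 rows (2 hindbrain-only) at 2 of 12. Neural crest and mesenchyme genes had 6 rows at 4 of 18 genes, 5 of them hindbrain-only, and heart genes 3 rows at 2 of 12, all hindbrain-only. Housekeeping genes had 5 rows at 4 of 14, of which 1 was hindbrain-only. With 2 to 6 rows each, these lists are too small to place their shares against the 36.5% of all rows. The part of other cells in the hindbrain-only class was not tested.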

How the data were processed

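SMARCA4 binding was measured by anti-FLAG ChIP and sequencing, in 1 library per tissue. Per the submitters' processing notes, the authors used BWA and the mm9 build, with no version given; the peak caller is not given in the sources used here. Per the file headers, each deposited hindbrain row gives a position, a count of tags, a score from the p-value (at least 50.01 in the file), a fold enrichment ratio, a score of conservation, and a gene name with the distance to it. The false discovery rate is empty in the hindbrain table. The deposited forebrain and neural tube lists hold positions and a rank only. Coordinates are printed as the files give them, whose base is not stated.

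Rows were classed by an overlap of at least 1 bp (Python 3.11.15, pandas 2.3.3, numpy 2.4.6). The overlap function was tested on simulated data and against bedtools. Intervals are Clopper-Pearson (scipy 1.17.1). Of 4550 gene names, 3767 matched RefSeq by symbol or synonym on the same chromosome; promoters are RefSeq's, of GRCm38.p6. A motif search within the rows was not run, because no mm9 genome was used here.

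Named genes are those with most distal hindbrain-only rows (up to 25 genes), the 3 rows of most tags per class, members of the 4 regional gene lists with a row, and the 3 most conserved distal hindbrain-only rows. The rows of neural progenitor genes were chosen after their values were seen. Members, classes and gene lists were chosen with earlier results of these data known.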

Additional observations from a re-analysis of the deposited data

How the results depend on the processing

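No paired analysis was possible because each group is 1 library. The classes rest on lists of unequal width and length. Requiring the row's summit inside the other peak, or 50% of the row covered, and leaving out mitochondrial and unplaced rows, moved none of the 6 summary values. The summit and coverage settings could move little, because 98.3% of the shared rows lay wholly inside 1 peak of another list. A share or median counted as moved when it left its interval. The highest number of rows at 1 gene, which has no interval, counted as moved when it changed by a ratio above 1.5. The hindbrain-only share of rows, 36.5%, was 53.8% with the other peaks cut to 500 bp, 62.9% at equal list lengths, 23.5% above the median score, 64.4% without rows over controls or inputs, 79.9% without rows over forebrain H3K4me3, 61.6% without the neural tube list, 42.0% without the forebrain list, 31.0% without rows of conservation 0 and 15.3% in rows of 20 tags or more. In the same order of settings, the share found in all lists, 2.12%, was 0.916% with cut peaks, 1.65% at equal lengths, 3.41% above the median score and 0.556% without H3K4me3 rows; it was 29.7% without the midbrain list, 2.89% without neural tube, 3.55% without forebrain and 4.44% in rows of 20 tags or more. The distal share of hindbrain-only rows, 70.8%, was 54.1% with cut peaks, 30.1% at equal lengths, 68.4% above the median score, 76.2% without control rows, 82.3% without H3K4me3 rows, 48.5% without neural tube, 66.9% without forebrain, 68.6% without conservation 0, 65.8% in rows of 20 tags or more, 76.9% for distances over 5 kb and 37.0% for those over 50 kb. It stayed above the distal share of shared rows in each of the 15 alternatives, with the smallest ratio without H3K4me3 rows (82.3% against 62.5%) and the smallest difference at equal lengths (30.1% against 16.9%). Median tags, 13, were 14 with cut peaks and without neural tube, 26 at equal lengths, 17 above the median score and 24 in rows of 20 tags or more. Median conservation, 346, was 378 with cut peaks, 426 at equal lengths (431 in shared rows), 370 above the median score, 323 without H3K4me3 rows, 392 without neural tube, 414 without conservation 0 and 399 in rows of 20 tags or more. The highest number of distal hindbrain-only rows at 1 gene, 6 at Zfp608, was 2 at equal lengths and in rows of 20 tags or more, where Zfp608 no longer led, and 3 above the median score, where Bnc2 tied with it. Beyond 50 kb 4 genes tied. Equal lengths and the score and tag limits hold fewer rows by construction. Leaving out a classing list cannot lower the hindbrain-only share, and leaving out rows of conservation 0 cannot lower the median conservation. The distance limit sets the distal share by definition. The cause of the other shifts was not tested. The settings on mitochondrial rows, conservation 0 and 20 tags were chosen after seeing the data. Rows of few tags, 9 at the lowest, limit what a missing overlap can show.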
